A study of Mus musculus with 35 samples.

Results

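RNA of repeat elements was compared between 9 and 3 months of age in the hippocampus of rTg4510 mice. The comparison rests on 11 of the 35 libraries of the series, 5 titled rTg4510 at 9 months and 6 titled rTg4510 at 3 months. In the rTg4510 line a transgene encoding mutant human tau is switched on by a transactivator that is made in forebrain neurons, on a mixed 129S6, FVB background. By their titles, animals of both ages carried the same transgene, so the contrast is one of age within the titled genotype. The genotype in the characteristics disagrees for 7 of the 11 libraries, as described below. No treatment is given in the labels. The 12 non-transgenic libraries of 3 and 9 months (6 each) and the 6 rTg4510 libraries of 6 months are used only where the age effect is set beside them. All rows of the table with a normalized count of at least 10 in at least 5 of the 11 libraries were examined, which kept 855 of 1153 rows. The rows set aside held 0.123% of the normalized counts of the 11 libraries. At the edge of this filter the fifth highest value was 10.1 for MER92-int, which was kept, and 9.71 for ERVB7_4-LTR_MM, which was not.

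Repeat elements are the remains of sequences that copied themselves through the genome. SINEs and LINEs moved through an RNA copy, LTR elements are endogenous retroviruses and their relatives, and DNA transposons moved as DNA. Most copies can no longer move, and many lie inside introns and untranslated regions, so their RNA may come from an element's own promoter or from a host gene. Activation of retroelements has been described in tauopathy, and the rTg4510 hippocampus is known to lose neurons with age. Each row sums all genomic copies of 1 element name, so no single position belongs to it, and reads of close relatives can be shared between rows. In bulk tissue, fewer cells of a type and less RNA per cell cannot be told apart.

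The recovered reads per library ranged from 476049 to 686331 at 9 months and from 765712 to 1173358 at 3 months, without overlap. Sequencing lanes were also uneven. The 9 month libraries came from lane 8 (Sample_199 and Sample_203) and lane 1 (Sample_205, Sample_208 and Sample_211), and the 3 month libraries from lane 4 (Sample_166), lane 5 (Sample_170) and lane 6 (the other 4). No lane held both ages, and lanes 1 and 4 together held 3 libraries of 9 months and 1 of 3 months. The genotype in the characteristics disagreed with the title in 7 of the 11 libraries (4 at 9 months and 3 at 3 months), and the titles were used. The table holds no gene rows, so neither the tau transgene nor cell type markers could be checked here. One ratio within the table, that of the SINE B3 to its relative B3A, followed the titles in every library but 1, and it was chosen after its values were seen. Its log2 value was 1.35 to 1.59 in the 17 libraries titled rTg4510 and 1.19 to 1.30 in 17 of the 18 titled non-transgenic. The exception was Sample_207, titled non-transgenic at 9 months and rTg4510 in its characteristics, at 1.46. It also stood apart from its group in several elements, so comparisons with non-transgenic animals are given with and without it. Sample_208, titled rTg4510 at 9 months and non-transgenic in its characteristics, had the lowest ratio of the rTg4510 titles, 1.35. The source name gives the hippocampus and the tissue entry a lysate of total brain.

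At 9 months the relics LTR104_Mam, UCON6 and Charlie8 were among the elements with more RNA, and L1ME3G, LTR81B and 4 of the 5 B2 SINEs among those with less. After rescaling of the libraries by TMM, a trimmed mean of the ratios between libraries, 86 elements were higher at 9 months (10.1% of 855) and 65 were lower (7.6%). Together these 151 elements were 17.7% of those tested (limma, Benjamini-Hochberg adjusted p under 0.05), and 283 elements had an unadjusted p under 0.05. The changes were mostly modest. The median log2 fold change was 0.37 among the higher and -0.39 among the lower elements, and 41 of 151 exceeded 0.5 in size (20 higher and 21 lower). The higher elements had a median level of 367 normalized counts and the lower ones of 145, against 122 for all 855. For 54 elements every 9 month library lay above every 3 month library (6.32%), and for 23 every one lay below (2.69%), together 9.01%. With every library thinned to 476049 reads, the number of the shallowest one, 117 of the 151 elements were still called.

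The scale decided how many elements were called and in which direction most of them went. On the values as deposited, 10 elements were higher (1.17%) and 25 lower (2.92%), together 4.09%, and the median over all 855 was -0.14 against -0.02 after rescaling. Of the tested elements, 611 (71.5%) had a deposited log2 fold change below 0. A total of 32 elements were called on both scales, 10 higher and 22 lower. Unless the deposited scale is named, levels below are TMM-rescaled normalized counts, fold changes come from log2(value + 1), and adjusted p are from limma over the 855 elements. With the groups taken from the characteristics instead of the titles, 0 elements were called, with 83 at an unadjusted p under 0.05 on the TMM scale. Those groups are largely other libraries. They share with the titled groups only 1 library of 9 months (Sample_211) and 3 of 3 months (Sample_166, Sample_170 and Sample_174). Without Sample_207, which enters the fit through the shared spread, all 151 elements were still called, among 102 higher and 80 lower. Without Sample_208, 112 of the 151 were still called.

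**Figure D1:**
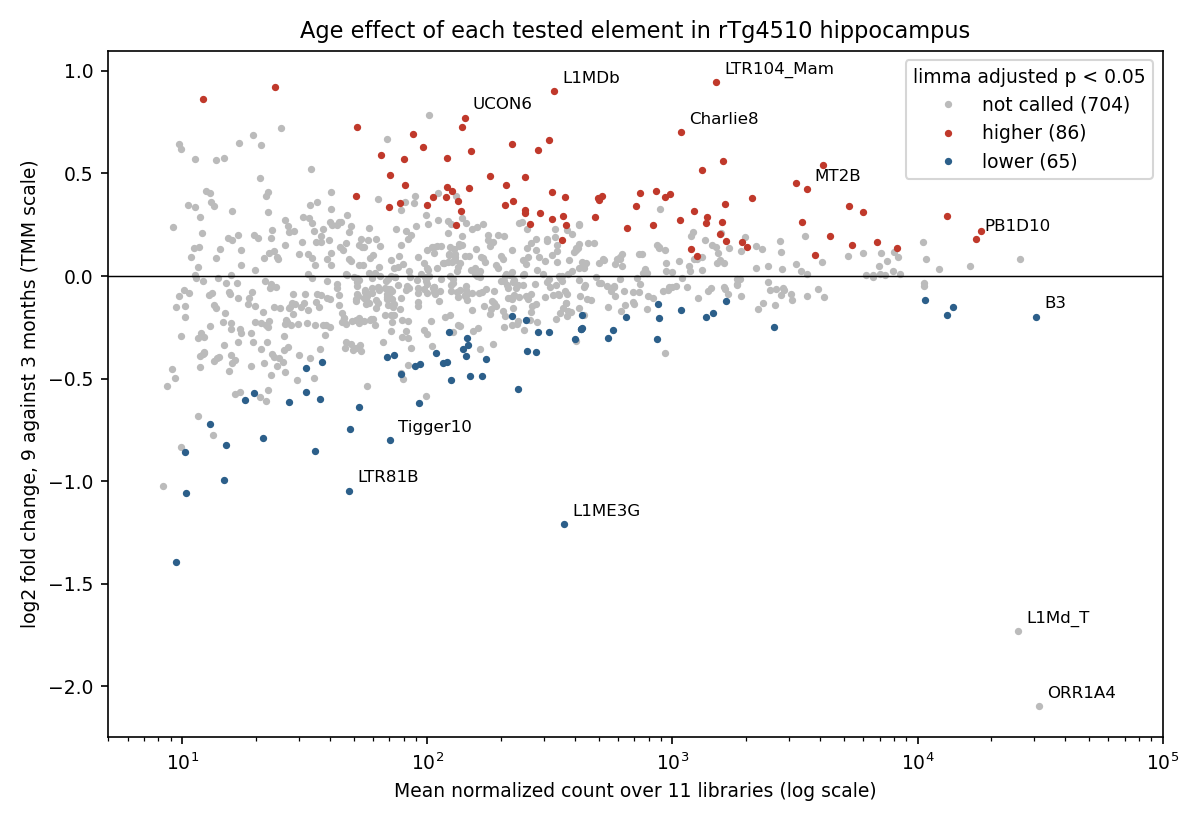
Log2 fold change of each of the 855 tested elements at 9 against 3 months (vertical axis, TMM scale) against its mean normalized count over the 11 libraries (horizontal log axis). Red and blue points are the 86 higher and 65 lower elements. L1Md_T and ORR1A4 lie lowest among abundant elements and are not called.

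Among LTR elements, LTR104_Mam, a Gypsy-type relic shared by mammals, showed the largest rise of the named elements. Its level was 2030, 2405, 2048, 1828 and 2338 in Sample_199, Sample_203, Sample_205, Sample_208 and Sample_211 at 9 months, and 995 to 1221 with a median of 1090.5 at 3 months. All 9 month libraries stood above all 3 month libraries, a 1.93-fold rise (log2 fold change 0.95, SE 0.17, adjusted p = 0.00056). It was also called on the deposited scale, with a log2 fold change of 0.83 (adjusted p = 0.00145). LTR81B, another member of the Gypsy family, moved the other way, from 47.9 to 79.4 (median 57.99) at 3 months to 28.2, 15.2, 34.1, 39.2 and 34.8 in the 9 month libraries in the same order. The ranges did not overlap, and the log2 fold change was -1.05 (adjusted p = 0.00369). LTR81 of the same family, named after its values were seen, rose by a log2 fold change of 0.29 (adjusted p = 0.0111).

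The ERVL and ERVL-MaLR families are retrovirus relatives that include the MT and MLT elements. Of the ERVL elements 11 of 83 were higher and 2 lower, and of the ERVL-MaLR elements 10 of 91 were higher and 8 lower, beside 86 and 65 of all 855. MT2B, an ERVL LTR, was at 4173, 4764.5, 3967, 4154 and 4218 in the 9 month libraries in the order above and at 3060 to 3297 (median 3167) at 3 months. Every 9 month value was higher, a 1.34-fold rise (log2 fold change 0.42, SE 0.087, adjusted p = 0.00154). MLT1A1 of the ERVL-MaLR family was at 4892, 6129, 4645, 5029 and 5102.5 against 3173 to 3843 (median 3551). It rose without overlap (log2 fold change 0.54, adjusted p = 0.00154), and Sample_203 was the highest library for both elements. MERVL-int, the internal part of the retrovirus known for its activity in the cleavage-stage embryo, was at 706, 748, 769, 732 and 700 against 595 to 642 (median 624). Its rise was 1.18-fold (log2 fold change 0.23, adjusted p = 0.00369), and that of its LTR, MT2_Mm, was 1.19-fold (log2 fold change 0.25, adjusted p = 0.0164). The call of MT2_Mm was lost without Sample_203 (adjusted p = 0.0631). MLT1H-int (log2 fold change 0.66) and MLT1B (0.21) also rose without overlap of the libraries, and each was called whichever single library was left out.

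Members of the ERVK and ERV1 families went both ways. RLTR34C_MM, an ERVK LTR, was at 189.3, 245.2, 147.5, 154.1 and 194.2 at 9 months and at 93.3 to 123 (median 112) at 3 months. It rose 1.65-fold without overlap (log2 fold change 0.73, adjusted p = 0.00154). RLTR44C (log2 fold change 0.64), LTR10_RN (0.61) and RMER19B (0.35) of the ERVK family and LTR78B (0.61) and MER90a (0.58) of the ERV1 family also rose without overlap. LTR9 of the ERV1 family rose by 0.73 (adjusted p = 0.0152), a call lost without Sample_179 (adjusted p = 0.0503). IAPEY4_I-int, the internal part of an IAP-type retrovirus named for the Y chromosome, fell from 97.3 to 132 (median 111) to 86.8, 46.8, 90.2, 60.6 and 84.1. No 9 month library reached the 3 month range (log2 fold change -0.62, adjusted p = 0.00446). Of the 7 tested elements named for the Y chromosome this was the only one called (14.3%), beside 17.7% of all 855. The 7 had a median level of only 33.0 normalized counts. The labels do not state sex, and it was not tested.

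ERVB4_1B-I_MM-int (log2 fold change -0.64, adjusted p = 0.00381) and MuRRS4-int (-0.55, adjusted p = 0.0116) fell without overlap as well. MuRRS4-int was at 197.7, 109.9, 219.4, 219.8 and 201.5 at 9 months against 223 to 313 (median 273). Without Sample_203, the lowest of these, its log2 fold change was -0.37 and the call was lost (adjusted p = 0.071). IAPEz-int, the internal part of the intracisternal A particle, did not pass the test. It was at 1409, 1309, 1499, 1450 and 1318 against 1401 to 1637 (median 1445), with overlapping groups (log2 fold change -0.07, adjusted p = 0.282). ETnERV-int (log2 fold change 0.10, adjusted p = 0.484), MMERVK10C-int (-0.18, adjusted p = 0.172), IAPLTR1_Mm (0.14, adjusted p = 0.116) and MMVL30-int (0.02, adjusted p = 0.955) did not pass the test either.

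**Figure D2:**
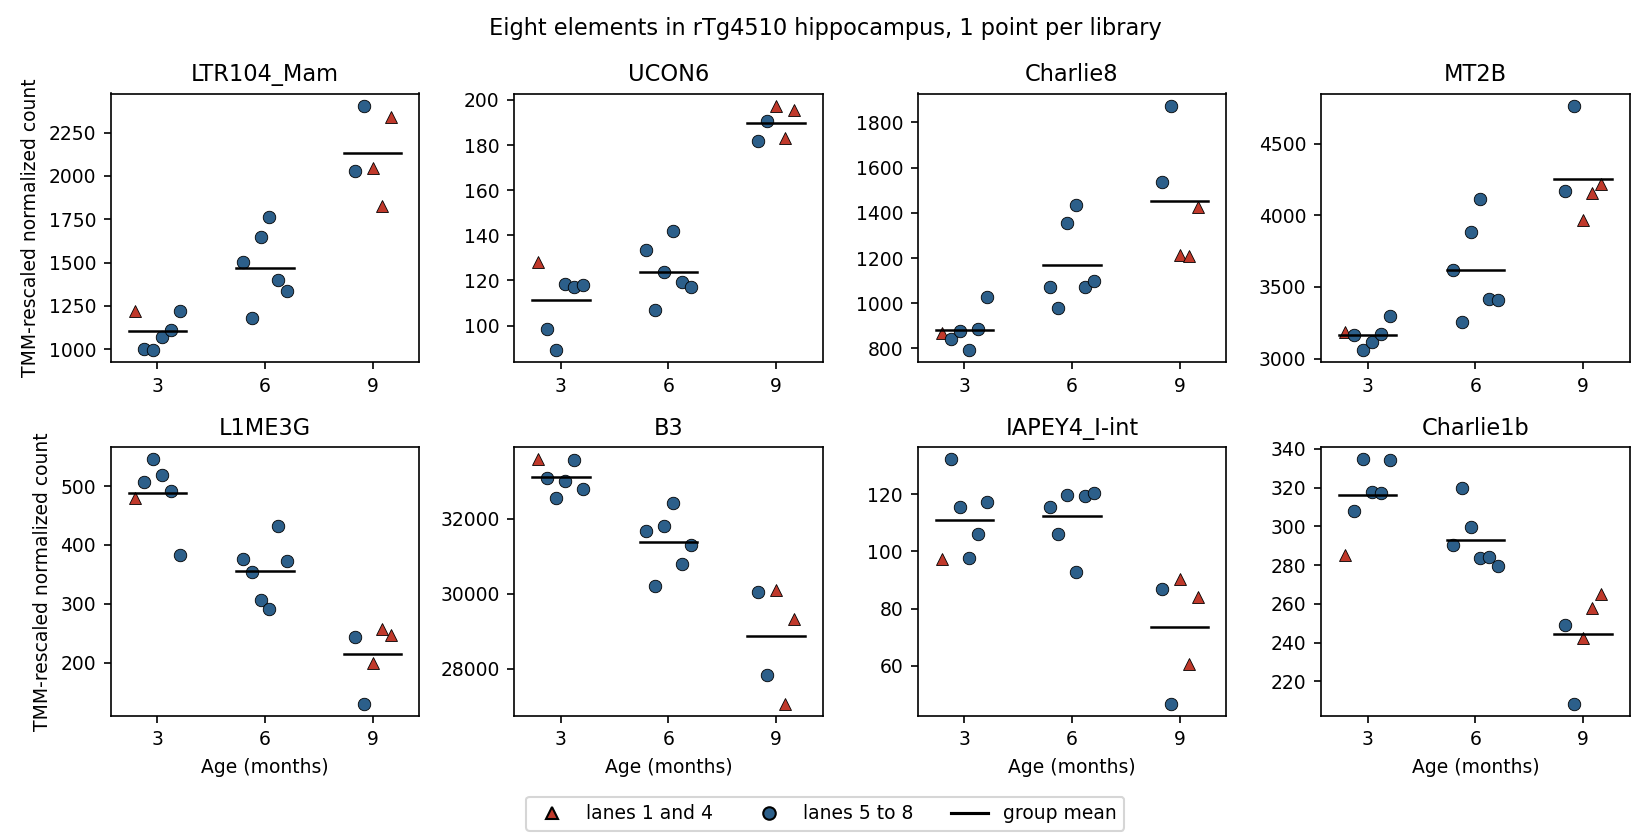
TMM-rescaled normalized count (vertical axis, not starting at 0) of 8 elements in each rTg4510 library at 3, 6 and 9 months. Red triangles are lanes 1 and 4, blue circles lanes 5 to 8 and bars group means. In all 8 panels the 9 month libraries of both lane groups lie beyond the 3 month range, for example 1828 to 2405 against 995 to 1221 for LTR104_Mam.

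LINE-1 elements, which encode the proteins for their own copying, included the largest fall among the named elements that were called, and L1MDb among those that rose. L1ME3G, an old L1 of mammals, was at 242.7, 130.2, 198.7, 256.5 and 246.4 in the 9 month libraries in the order above and at 383 to 546 (median 499) at 3 months. No library overlapped, and the level at 9 months was 0.43 times that at 3 months (log2 fold change -1.21, SE 0.19, adjusted p = 5.15e-05). The fall was also called on the deposited scale (log2 fold change -1.33, adjusted p = 0.000157). L1MDb, another old L1, rose from a range of 174.99 to 341.0 (median 241.0) to 345.2, 384.2, 499.7, 504.1 and 546.5. Sample_199 stood only just above the highest 3 month library, Sample_174 (log2 fold change 0.90, adjusted p = 0.00381). L1MEg2 (log2 fold change 0.69), L1MEi (0.52) and L1MEc (0.38) rose, and L1MA5A (-0.49) and MusHAL1 (-0.49) fell. Of the young mouse L1 elements, L1Md_A (-0.07, adjusted p = 0.685), L1Md_F2 (-0.10, adjusted p = 0.195) and L1Md_Gf (0.14, adjusted p = 0.577) did not pass the test. L3 and L3b, of the CR1 family of ancient LINEs and named after their values were seen, rose by 0.31 (adjusted p = 0.00536) and 0.45 (adjusted p = 0.00155).

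DNA transposons and unclassified relics also went both ways. Charlie8, an old transposon of the hAT-Charlie family, was at 1535, 1874, 1212, 1210 and 1426 at 9 months against 793 to 1026 (median 873) at 3 months. It rose 1.63-fold, again with Sample_203 highest and no overlap (log2 fold change 0.70, adjusted p = 0.00154). UCON6, a relic known from conserved copies, was at 182.0, 190.8, 197.5, 183.2 and 195.7 against 89.2 to 128 (median 118). The 9 month libraries were close to each other and all above the 3 month range (log2 fold change 0.77, SE 0.12, adjusted p = 5.15e-05). Tigger7 rose by a log2 fold change of 0.26, and Charlie1b (-0.37) and Charlie4a (-0.51) fell. Tigger10 was at 57.5, 39.2, 45.1, 49.3 and 63.8 against 51.0 to 108 (median 95.8), and the groups overlapped through Sample_166 alone. Its log2 fold change was -0.80 (adjusted p = 0.00554), but 0.03 within lanes 1 and 4, where Sample_166 is the only 3 month library.

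SINEs of the B2 family, derived from a transfer RNA and known to be transcribed by RNA polymerase III, were lower at 9 months in 4 of 5 members. Of all 855 elements 65 were lower (7.6%). B3 was at 30040, 27842, 30102, 27068 and 29318 at 9 months and at 32566 to 33589 (median 33051) at 3 months. The groups stood well apart, although the change was small, 0.87 times (log2 fold change -0.20, SE 0.028, adjusted p = 2.2e-05). B2_Mm2 fell by 0.19 (adjusted p = 0.00155), B2_Mm1t by 0.25 (adjusted p = 0.00745) and B3A by 0.12 (adjusted p = 0.0108) on the log2 scale. The call of B3A was lost without Sample_203 (adjusted p = 0.0624). B2_Mm1a had a log2 fold change of -0.16 (adjusted p = 0.0997). None of the 5 was called on the deposited scale, where B3 had a log2 fold change of -0.32 (adjusted p = 0.164), and these rows are close relatives that can share reads.

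The Alu family of the table, the B1 elements derived from the RNA of the signal recognition particle, had 4 of 16 members higher and 0 lower. Of all 855 elements 86 were higher (10.1%) and 65 lower (7.6%). On the deposited scale 0 of the 16 were called. PB1D10 was at 19188, 19031, 18250, 19491 and 19276.5 at 9 months against 16467 to 17339 (median 16778). All 9 month libraries were higher, a 1.13-fold rise (log2 fold change 0.18, adjusted p = 0.00381). B1_Mur3 rose 1.12-fold (log2 fold change 0.16, adjusted p = 0.00745), while B1_Mm had a log2 fold change of 0.10 (adjusted p = 0.322). The median of the 16 was 0.09 on the TMM scale and -0.03 on the deposited scale, beside -0.02 and -0.14 over all 855. MIR3 and MIRb, ancient mammalian SINEs named after their values were seen, rose by 0.29 (adjusted p = 0.00745) and 0.22 (adjusted p = 0.008065), and 3 of the 4 MIR elements, MIR3 included, were also higher in lanes 1 and 4. RSINE1 of the B4 family, also named afterwards, fell by 0.15 (adjusted p = 0.00699).

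Set side by side, the families differed in how their called members were split, beside 86 higher and 65 lower of all 855 with a median of -0.02. ERVL had 11 higher and 2 lower of 83 (median 0.02), ERVL-MaLR 10 and 8 of 91 (median -0.01), ERV1 10 and 6 of 86 (median 0.00) and ERVK 19 and 16 of 237 (median -0.03). L1 had 8 higher and 16 lower of 119 (median -0.10), hAT-Charlie 7 and 4 of 60 (median 0.03) and TcMar-Tigger 3 and 4 of 35 (median -0.02). By class, SINEs had 7 higher and 5 lower of 35, LINEs 11 and 16 of 138, LTR elements 52 and 33 of 509 and DNA transposons 12 and 10 of 143. A list of 52 tested elements of families young in the mouse held 2 higher, MERVL-int and MT2_Mm, and 7 lower, with a median of -0.07. The 7 were B2_Mm1t, B2_Mm2, IAPEY4_I-int, MuRRS4-int and 3 MYSERV internal parts. With the lane group in the fit, described below, 66 of all 855 elements were higher and 52 lower. Beside these, some splits shifted, to 9 higher and 7 lower for L1, 7 and 3 for ERVL, 6 and 7 for ERV1 and 35 and 34 for all LTR elements. B3, B2_Mm2, B2_Mm1t and B3A of the B2 family were called lower in that fit too (adjusted p = 2.2e-05, 0.00828, 0.0384 and 0.0147), and the Alu family had 2 higher. These lists are described and not tested as sets.

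**Figure D3:**
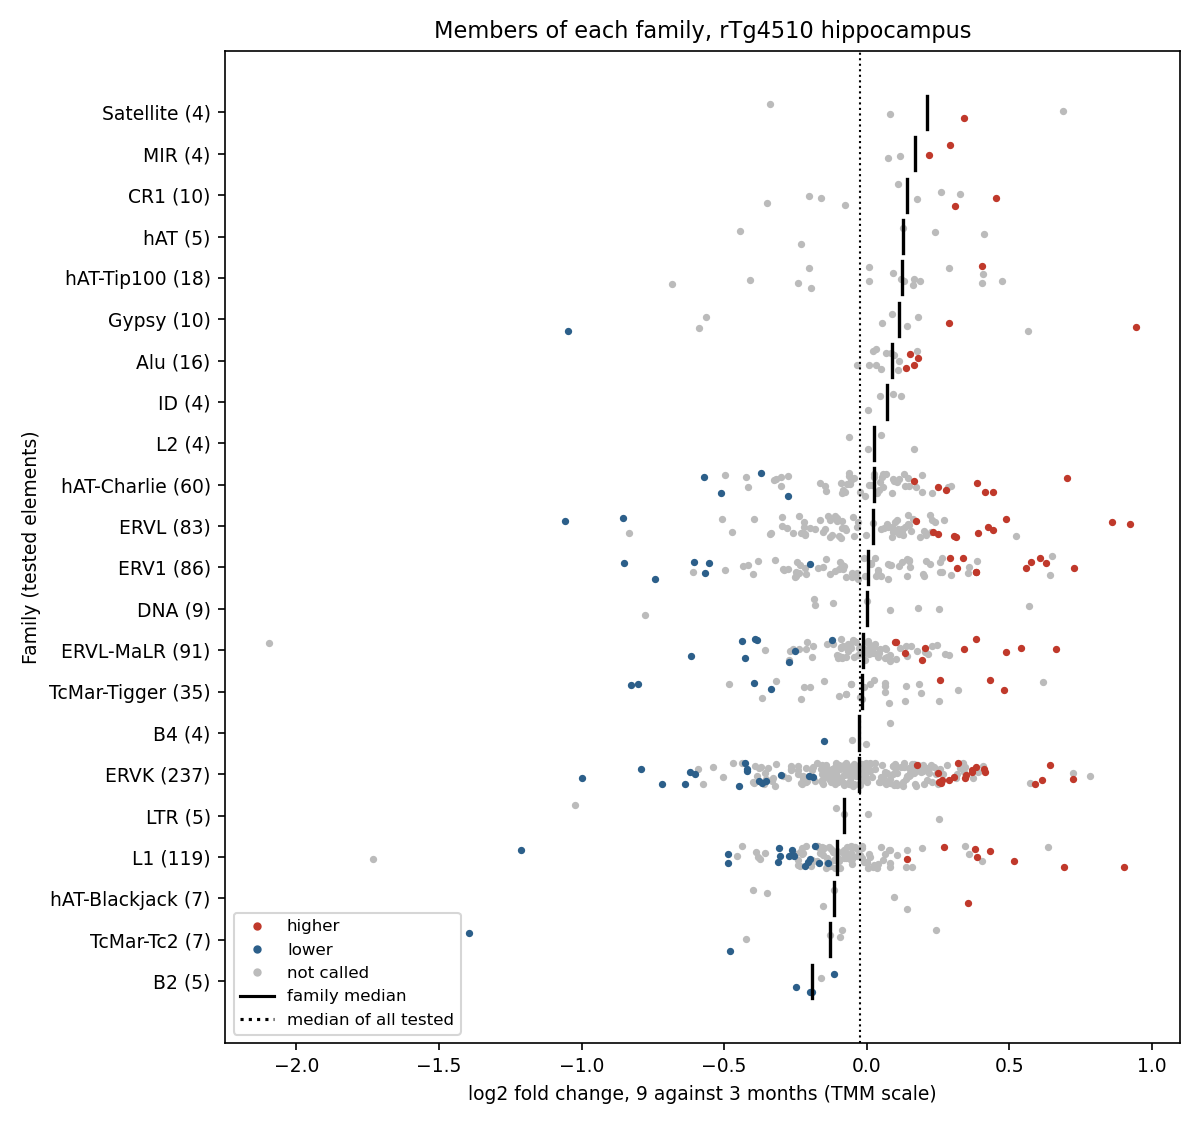
Log2 fold change at 9 against 3 months (horizontal axis, TMM scale) of every tested element in families with at least 4 tested elements (vertical axis, number tested in brackets). Red and blue points are higher and lower elements, black bars family medians and the dotted line the median of all tested elements. The B2 family has the lowest median, -0.19, with 4 of 5 members lower.

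LTR elements as a class took a larger share of the normalized counts at 9 months, and SINEs a smaller one, once ORR1A4 and L1Md_T, described below, were left aside. LTR elements held 25.1% ± 0.36 (SD, n = 5) at 9 months and 24.4% ± 0.082 (SD, n = 6) at 3 months, a difference of 0.74 percentage points. The 9 month range of 24.8% to 25.7% lay above the 3 month range of 24.3% to 24.5% (two-sided exact permutation p = 0.00433, adjusted over 4 classes 0.0173, the smallest p that 462 splits allow being 0.00433). Within lanes 5 to 8 (2 libraries against 5) the LTR share was higher at 9 months by 0.60 points. There the exact permutation p was 0.0952, the smallest that 21 splits allow. Within lanes 1 and 4 (3 libraries against 1) the LTR share was higher by 0.77 points. The tests of class shares were not planned. SINEs held 47.1% ± 0.69 against 47.8% ± 0.31, a difference of -0.69 points (exact permutation p = 0.0173, adjusted 0.0346), or -0.38 points without Sample_203. The differences of LINEs (-0.46 points) and DNA transposons (0.19 points) did not pass the test (exact permutation, adjusted p = 0.152 each). Without Sample_203 the LINE difference was -0.73 points (exact permutation p = 0.019, unadjusted). Within lanes 5 to 8 the differences were -1.07 points for SINEs, 0.03 for LINEs and 0.32 for DNA transposons (exact permutation p = 0.19, 0.952 and 0.19).

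B3 alone went from 4.995% to 4.201% of these counts, B2_Mm2 from 2.17% to 1.83% and RSINE1 from 2.25% to 1.95%. MIR3 went from 1.87% to 2.21%, MIRb from 2.63% to 2.95% and PB1D10 from 2.53% to 2.77%, so members of the SINE class moved against each other. Among LTR elements, MLT1A1 added 0.22 points, LTR104_Mam 0.14 and MT2B 0.14. Counts are not corrected for length, so these shares describe reads and not molecules. With ORR1A4 and L1Md_T included, the differences turned to -0.56 points for LTR elements and 1.65 points for SINEs. Neither passed the test then (exact permutation p = 0.74 and 0.528).

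**Figure D4:**
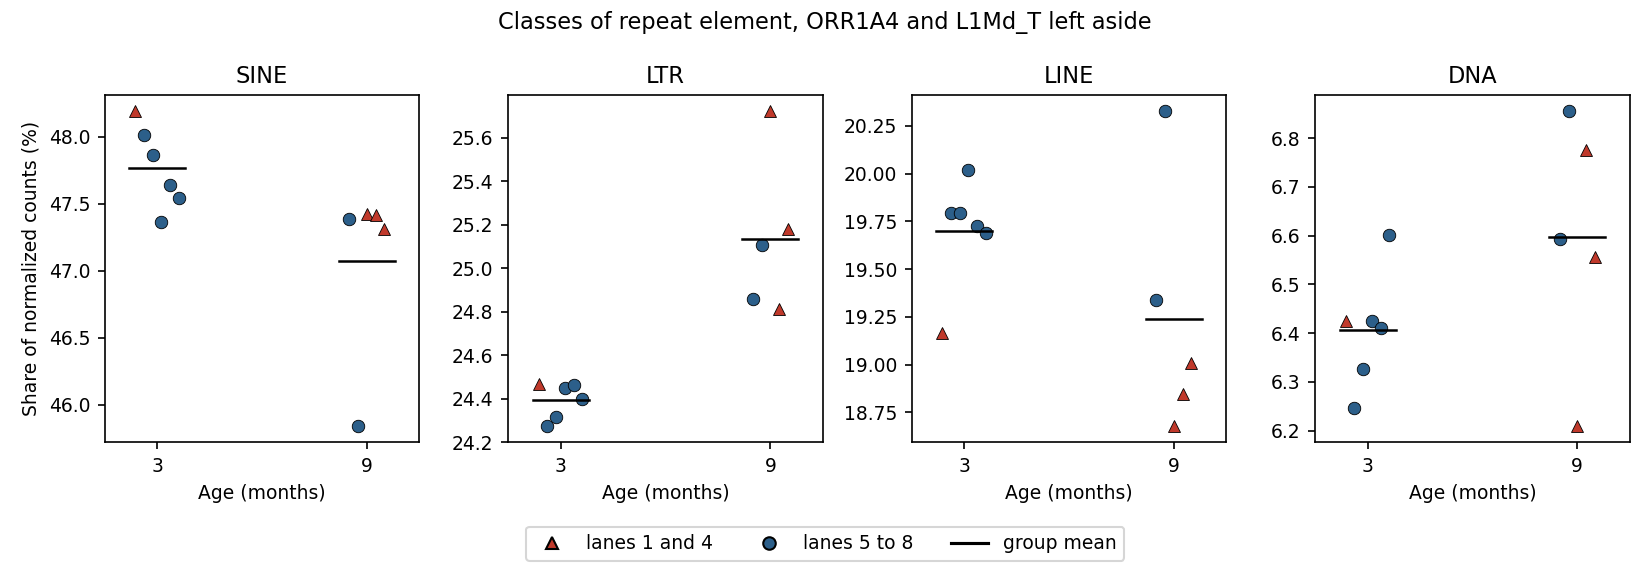
Share of normalized counts (vertical axis, percent, not starting at 0) held by 4 classes of element in each rTg4510 library at 3 and 9 months, without ORR1A4 and L1Md_T. Red triangles are lanes 1 and 4, blue circles lanes 5 to 8 and bars group means. The LTR share is 24.8% to 25.7% at 9 months and 24.3% to 24.5% at 3 months.

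Elements that followed the lane were found by adding the lane group (lanes 1 and 4 against lanes 5 to 8) to the fit of all 35 libraries. ORR1A4, a MaLR element of the LTR class, and L1Md_T, a young mouse L1, followed it most. ORR1A4 held 0.185% to 0.352% of the normalized counts in the 4 libraries of lanes 1 and 4 and 2.06% to 12.8% in the 7 of lanes 5 to 8. L1Md_T held 0.201% to 0.344% and 1.41% to 12.7%. The lane groups did not overlap for either (two-sided exact permutation p = 0.00606 each, unadjusted, the smallest that 330 splits allow). Both elements stood out by lane in a fit that held these same libraries, so this p is no separate support. Their lane effects were -4.85 and -3.78 on the log2 scale, and their age effects of -2.10 and -1.73 were not called (adjusted p = 0.16 and 0.296). With the lane group in the fit, the age effects became 0.00 and -0.09.

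**Figure D5:**
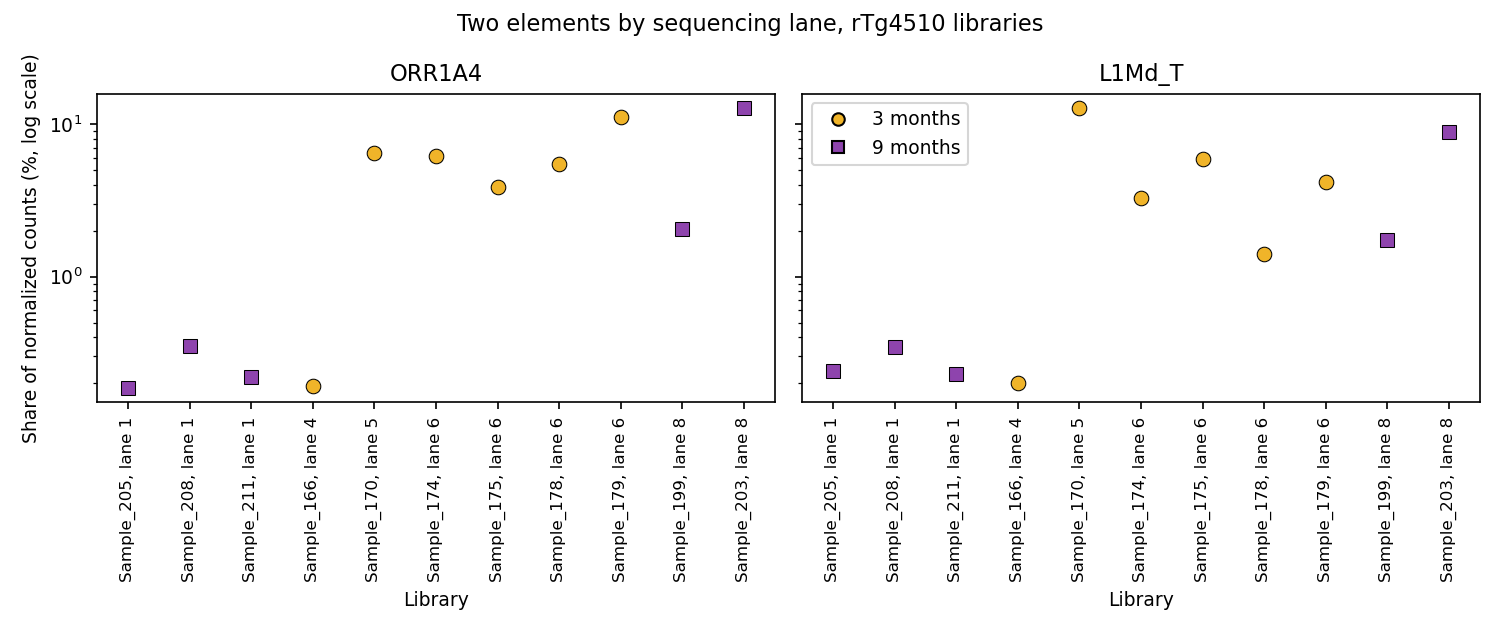
Share of normalized counts (vertical log axis, percent) held by ORR1A4 and L1Md_T in each of the 11 rTg4510 libraries, ordered by lane (horizontal axis). Circles are 3 months and squares 9 months. The 4 libraries of lanes 1 and 4 lie at 0.352% or below and the 7 of lanes 5 to 8 at 1.41% or above, whatever the age.

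Over all elements, 42 were higher in lanes 1 and 4 (4.91%) and 65 lower (7.6%), 12.5% of those tested. L1 elements made up most of the lower ones, with 37 of 119 lower and 1 higher. ETnERV2-int (log2 difference -1.38), L1MEd (-1.10) and UCON2 (-0.66) were the next lowest of those with a mean of at least 50, and MER45R (0.46), LTR33A_ (0.35), ZP3AR (0.34), L1MEi (0.30), MER91A (0.28) and MER81 (0.28) the highest. For 15 elements every rTg4510 library of lanes 1 and 4 lay above every one of lanes 5 to 8 (1.75%), among them ID_B1, ZP3AR, LTR33A_ and MER45R, and for 21 every one lay below (2.46%), among them MMSAT4, ETnERV2-int, L1MEd and B2_Mm1a. These 36 were 4.21% of the elements. On the deposited scale 302 elements were higher in lanes 1 and 4 (35.3%) and 5 lower (0.585%), together 35.9%, and without Sample_166 the 302 became 72. Fitted on the 11 rTg4510 libraries alone, 3 were higher and 7 lower on the TMM scale.

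Both an age and a lane effect were called for 31 elements, 20.53% of the 151 with an age effect and 29.0% of the 107 with a lane effect. In all 31 the element that was higher at 9 months was higher in lanes 1 and 4, or lower in both. The design favours this agreement. The age fit had no lane term, and lanes 1 and 4 held 3 of 5 libraries of 9 months but 1 of 6 of 3 months. A lane effect therefore enters the age effect with the same sign. Tigger10, MusHAL1, L1MEi, MLT1B, LTR78B and B2_Mm1t were among these 31. The other 120 of the 151 had no lane call, including LTR104_Mam (lane log2 difference 0.22, adjusted p = 0.324), L1ME3G (-0.04, adjusted p = 0.901), B3 (0.01, adjusted p = 0.81) and Charlie8 (-0.06, adjusted p = 0.813). With the lane group in the fit, 104 of the 151 (68.9%) were still called. Among the named elements the age calls of MusHAL1 (adjusted p = 0.0553) and LTR9 (adjusted p = 0.0528) were lost. Within lanes 5 to 8 alone, 2 libraries of 9 months against 5, 88 of the 151 were called, and within lanes 1 and 4 (3 against 1) no element was called, with 19 at an unadjusted p under 0.05 (limma). As no lane held both ages, age and single lane cannot be told apart.

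The age effect differed between rTg4510 and non-transgenic animals for 21 elements (2.46%), 8 with a more positive (0.936%) and 13 with a more negative (1.52%) effect in rTg4510. A total of 14 of these were among the 151, which are 17.7% of all 855. The difference contains the rTg4510 age effect of the same libraries, so this overlap is built in and is no separate support. These counts turned on Sample_207: without it 75 elements had a more positive and 49 a more negative effect, the 21 among them, and without both Sample_207 and Sample_208 the counts were 58 and 42, again with the 21 among them. L1ME3G had the largest difference of those named. In non-transgenic libraries it was at 350 to 585 (median 411) at 3 months and at 417 to 513 in 5 of the 6 libraries of 9 months, the other being Sample_207 at 168.6. The log2 fold change there was -0.14 (adjusted p = 0.808), or 0.10 without that library (adjusted p = 0.803). The difference of the age effects was -1.07 (adjusted p = 0.0173), or -1.31 without it (adjusted p = 1.69e-05). B3 was at 26044 to 27665 in non-transgenic libraries at 3 months and 27099 to 29042 at 9 months, where Sample_207 was the highest and the other 5 reached 27396. The log2 fold change was 0.03 (adjusted p = 0.733). The rTg4510 libraries stood above the non-transgenic range at 3 months, and Sample_208 (27068) lay under that of 9 months. The difference of the age effects was -0.23 (adjusted p = 0.00075), or -0.21 without Sample_207 (adjusted p = 0.000368).

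IAPEY4_I-int (difference -0.74, adjusted p = 0.0441) and L1MEc (0.38, adjusted p = 0.0485) also passed, but both calls were lost in most fits that left out 1 library, among them the fit without Sample_203 (adjusted p = 0.101 and 0.0566). Without Sample_207 their adjusted p were 0.00399 and 0.00367. LTR104_Mam (0.75), UCON6 (0.53) and Charlie8 (0.64) each had an adjusted p of 0.0641 with all libraries and passed without Sample_207. LTR104_Mam was at 3104 in that library and at 952 to 1435 in the other 5 non-transgenic libraries of 9 months. Its difference of the age effects was 1.00 without that library (adjusted p = 1.69e-05). Charlie8 was at 1762 there and at 705 to 921 in the other 5, and its difference was 0.83 without that library (adjusted p = 0.000291). UCON6 was at 171 there, within the 116 to 189.6 of the other 5, and its difference was 0.59 without it (adjusted p = 0.0126). Which genotype Sample_207 has was not tested. Sample_207 was left out after its values in several of these elements were seen. The adjusted p without it, here and for L1ME3G and B3 above, are therefore a description and no separate support. Without Sample_205 the counts were 35 and 23, and without Sample_208 they were 2 and 7. On the deposited scale the median of this difference was -0.47, and 0 elements had a more positive and 303 a more negative effect.

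The rTg4510 libraries of 6 months, all from lanes 7 and 8, had medians between those of 3 and 9 months for LTR104_Mam, L1ME3G, MT2B and B3. LTR104_Mam was at 1182 to 1763 (median 1450), L1ME3G at 291 to 432 (median 364), MT2B at 3258 to 4111 (median 3518) and B3 at 30206 to 32425 (median 31500). IAPEY4_I-int, in contrast, was at 92.8 to 120 (median 117), with its lowest library just under the 3 month range. UCON6 was at 107 to 142 (median 122), nearer to the 3 month median of 118 than to the 9 month libraries. These values are a description, and steps to and from 6 months were not tested.

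The level of a typical element, taken as the median log2 ratio to the average of the libraries on the deposited scale, was -0.053 ± 0.20 (SD, n = 5) at 9 months and 0.057 ± 0.24 (SD, n = 6) at 3 months. The ranges overlapped and the difference of -0.11 was within the spread (two-sided exact permutation p = 0.459). Sample_166 was the highest library, at 0.48, and without it the difference was -0.026. The log2 ratio of B3 to its relative B3A, which does not depend on scaling, was 1.45 ± 0.069 at 9 months and 1.54 ± 0.027 at 3 months (difference -0.083, exact permutation p = 0.0173). Sample_208 had the lowest ratio, 1.35, and without it the difference was -0.056 (exact permutation p = 0.0381). Within lanes 5 to 8 the difference was -0.027 (exact permutation p = 0.381).

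Among other repeats, the structural RNA 7SK had a log2 fold change of 0.04 (adjusted p = 0.826). IMPB_01, a satellite of the table named after its values were seen, rose by 0.34 (adjusted p = 0.00255) and was also higher in lanes 1 and 4. MMSAT4, a satellite, was called on the deposited scale alone (log2 fold change -0.46, adjusted p = 0.0487, against -0.34 and 0.0931 on the TMM scale), and its lane groups did not overlap.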

How the data were processed

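RNA depleted of ribosomal RNA was sequenced from 35 hippocampal libraries, per the labels. The deposited values are a signal, namely normalized counts for 1153 rows, each being the read count over a factor of its library as the steps of the values show. The submitters' processing notes list Trimmomatic, STAR, DESeq2 and mm10. What counted the reads, which repeat annotation was used and how multiply aligned reads were treated is not given in the sources used here. Whole reads were recovered from the steps of the values, and 100% came out within 0.01 of a whole number. Groups follow the titles. The labels number each library but do not say outright that each is a separate animal, so p-values measure the spread between these libraries.

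The main test was limma 3.58.1 (R 4.3.3) with an intensity trend on log2(value + 1), over all 35 libraries in 6 groups, two-sided, with Benjamini-Hochberg adjustment and a threshold of 0.05. It was run on the deposited values and on values rescaled by TMM factors from edgeR 4.0.16. Single values were compared with exact permutation tests. Alternatives included edgeR and DESeq2 1.42.0 on the recovered reads, a pseudocount of 5, no filter, lane terms, other groupings and leaving out each library. The edgeR test called 142 of the 151 elements again. On simulated data with 855 elements, the age test on the TMM scale recovered 86% of 1.5-fold and 96% of 2-fold changes and called 1.22% of unchanged elements. The simulation held no lane effect, no genotype effect and no library with a doubtful label. It therefore does not show how these affect the 151 calls.

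Elements were named by a rule. It took, on each scale, the 8 largest fold changes each way among called elements with a mean level of 50 or more, up to 2 with the smallest p in each family with at least 3 calls, the 6 largest lane effects each way, and a list of 29 elements of interest. Of that list MuLV-int, GSAT_MM and SYNREP_MM did not pass the filter. The members, lists and tests were chosen with earlier results of these data known. No repeat consensus sequence was at hand, so no sequence is shown.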

Additional observations from a re-analysis of the deposited data

Results flagged for a closer look

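In 14 of 152 groups of libraries examined, 1 library stood far from the others, and chance alone gives about 1 in 20. At 3 months Sample_166, the only library of that age in lanes 1 and 4, was low for ORR1A4 (1295 against 27881 to 87305) and Tigger10 (51.0 against 89.7 to 108) and high for ID_B1 (27757 against 25610 to 26299). Also at 3 months, Sample_179 was low for L1ME3G (383 against 480 to 546) and Sample_175 high for IAPEz-int (1637 against 1401 to 1454). At 9 months Sample_203 was low for the SINE share (45.8% against 47.3% to 47.4%), for MuRRS4-int (109.9 against 197.7 to 219.8) and for B3A (9640 against 10646 to 10892). Sample_208 was high for MamGypLTR3a, a Gypsy LTR (217 against 46.0 to 60.9). Over all libraries that element had a log2 fold change of -0.59 and was not called (limma adjusted p = 0.0812). Without Sample_208 the limma adjusted p was 0.000508. That library is singled out here by its value in this same element, so the second p is a description and no separate support. Among the non-transgenic libraries of 9 months, Sample_207 was high for LTR104_Mam (3104 against 952 to 1435), Charlie8 (1762 against 705 to 921), B3 (29042 against 27099 to 27396) and the log2 ratio of B3 to B3A (1.46 against 1.19 to 1.27), and low for L1ME3G (168.6 against 417 to 513).

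By the test of the difference itself, the age effect in rTg4510 differed from that in non-transgenic animals for 4 named elements. The differences were -1.07 for L1ME3G, -0.74 for IAPEY4_I-int, -0.23 for B3 and 0.38 for L1MEc (log2, TMM scale).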

How the results depend on the processing

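On the TMM scale the counts of higher and lower elements were 71 to 105 and 49 to 76 when each rTg4510 library was left out (102 and 80 without Sample_207), and 75 of the 151 elements were called every time (49 higher and 26 lower). Fitted on the 11 libraries alone, 42 were lower. With groups by the characteristics, which are largely other libraries, the counts were 0 and 0. The libraries with agreeing labels are 1 of 9 months against 3 of 3 months, and lanes 1 and 4 hold 3 against 1. These 2 settings leave 1 library in a group. On reads thinned to 476049 per library, 117 of the 151 were called again.

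The deposited scale was less stable. Its counts of higher elements were 6 with no filter, 6 on the 11 libraries, 4 with the lane group, 0 within lanes 1 and 4, 37 with array weights, 0 by the characteristics, 3 with agreeing labels and 3 after thinning. Those of lower elements were 13 with a pseudocount of 5, 12 with no filter, 60 with the lane group, 53 within lanes 5 to 8, 0 within lanes 1 and 4, 51 with array weights, 13 by edgeR, 0 by the characteristics, 7 with agreeing labels and 3 after thinning. Leaving out each library gave 3 to 21 higher (21 without Sample_166) and 5 to 48 lower (48 without Sample_205), and the higher count moved by over 1.5 times for every library but Sample_199 and Sample_208, the lower for every one but Sample_175 and Sample_179. At an unadjusted p under 0.05 there were 76 elements within lanes 1 and 4 and 84 by the characteristics.

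Lane calls on the TMM scale were 16 to 45 higher and 42 to 71 lower without each library (moved most by Sample_166, Sample_199, Sample_203 and Sample_208), 25 higher with no filter, and 3 and 7 on the 11 libraries, and on the deposited scale 72 to 324 and 4 to 5. The difference between genotypes gave 31 and 22 with the lane group, 5 more positive with no filter, and 0 and 303 on the deposited scale, 58 and 42 without Sample_207 and Sample_208, and 2 to 75 and 7 to 49 without each library of either genotype (75 and 49 without Sample_207), with every library but Sample_166, Sample_172, Sample_179, Sample_203 and Sample_211 moving a count by over 1.5 times. Leaving out non-transgenic libraries was chosen after seeing the data. The B3 to B3A ratio differed by -0.0274 within lanes 5 to 8 and -0.125 within lanes 1 and 4, both past no threshold, and by -0.102 to -0.056 without each library. The typical level differed by -0.178 to -0.026.

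Reversed signs were 0.0318 for Tigger10 within lanes 1 and 4 and -0.19 for ZP3AR within lanes 5 to 8 (TMM scale), -0.0697 for the difference of L1MEc on the deposited scale, and, on that scale, -0.0099 for RLTR34C_MM within lanes 1 and 4 and 0.0863 for IAPEY4_I-int, 0.0291 for Charlie4a and 0.0328 for MusHAL1 by the characteristics. With ORR1A4 and L1Md_T included, class shares turned to -0.56 points for LTR elements and 1.65 for SINEs. The cause was not tested. No paired analysis was possible because the titles number every library once and no number is shared between ages. Reads per library limit elements with low counts.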
